A study of Mus musculus with 6 samples.

Results

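The wild-type (WT) *Pdx1* lineage of the E10.5 mouse embryo was profiled in 3 messenger RNA libraries, which were chosen by their WT titles out of 6 libraries in the series. The other 3 libraries came from embryos without *mir-302* (KO), and no value of theirs was used here. The WT cells carried *Pdx1-Cre* and tdTomato with an intact *mir-302* locus, labelled as Pdx1-Cre+, Tdtomato+, miR-302WT. They came from crosses in which both parents were *mir-302*+/-, the father carried *Pdx1-Cre* and the mother carried a tdTomato reporter at *Rosa26* that Cre switches on. Cre was driven by a *Pdx1* promoter transgene, so any cell that had once used this promoter, and its descendants, kept the label whatever it had become. The trunk region was dissociated, tdTomato cells were sorted by flow cytometry into Trizol LS, and the labels call the cells pancreatic progenitors. How many embryos or cells went into a library is not given in the sources used here, so the spread between libraries is that of these 3 samples and may hold differences between embryos, sorts and library preparations.

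At this stage, multipotent progenitors form buds from the foregut endoderm. The homeobox factor *Pdx1*, the HMG factor *Sox9* and the forkhead factor *Foxa2* act together in these cells, and *Neurog3* starts endocrine differentiation in some of them. The earliest endocrine cells of the mouse make glucagon. Signals from the surrounding mesenchyme, such as FGF10, keep the progenitors dividing. *Pdx1* is also made in the duodenum and the distal stomach next to the pancreatic buds.

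WT replicates 1, 2 and 3 held 21347945, 17859163 and 20733713 counts. Of 55414 genes listed, 27818 had at least 1 count in any WT library and 15064 (27.2%) had at least 10 counts in each of the 3. These 15064 genes are described here, 13065 of them protein coding and 1162 (7.71%) annotated as pseudogenes, which held 2.70% to 2.83% of the counts. Their log2 levels had Pearson correlations of 0.978 to 0.981 between libraries, across genes, which are not independent replicates. WT replicate 3 stood apart by its globin genes, and the libraries also differed in their endocrine and mesenchymal genes, so values are given for every library below. *Xist*, which silences an X chromosome, was at 0, 58.7 and 70.3 CPM in WT replicates 1, 2 and 3. The Y-linked gene *Uty* was at 63.9, 0 and 0 CPM, so that WT replicate 1 went the opposite way from the others in both.

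Levels within a gene are given as CPM (each library's counts scaled to a total of 1000000). Levels between genes are given per length, as counts per kilobase of annotated exon rescaled to the same total in each library (TPM scale). Values after ± are SDs over the 3 libraries (n = 3). Counts of genes that passed in a list are to be read beside the 27.2% of all listed genes that passed. Because each library is a bulk sample, more cells of a type and more RNA per cell cannot be told apart.

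The genes that define the lineage were present in all 3 libraries. *Pdx1* (ENSMUSG00000029644.8) was at 105 CPM in WT replicate 1, 90.8 in replicate 2 and 91.4 in replicate 3. *Sox9* (ENSMUSG00000000567.6) was at 257, 214 and 177 CPM, and *Foxa2* (ENSMUSG00000037025.12) at 122, 142 and 126 CPM in the same order. Their coefficients of variation (CV, the SD as a percent of the mean) were 8.66%, 18.8% and 8.18%. No library was low in all 3 of these genes, and *Sox9* was the one of them with the largest range. All 17 genes of a pancreatic progenitor list passed 10 counts in each library, against 27.2% of all listed genes. The summed level of the list was 1342, 1336 and 1185 CPM.

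Per length, *Foxa2* was the highest of the list at 171 ± 16.7 on the TPM scale, followed by the zinc finger factor *Gata4* at 170.3 ± 32.0, *Sox9* at 163 ± 33.8 and *Pdx1* at 138 ± 13.9. The ranges of these neighbours overlapped, so their order is not set by these data. *Prox1*, a homeobox factor of foregut buds, was at 98.2 ± 7.42 and had the smallest CV of the list, 4.84%. The acinar enzyme gene *Cpa1*, which marks multipotent progenitors at the tips of the buds, was at 136 ± 23.98 on the TPM scale.

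The other members were lower. *Onecut1*, a factor upstream of *Neurog3*, was at 50.8, 44.5 and 37.4 CPM, and *Nr5a2*, a nuclear receptor of acinar development, at 32.9, 19.8 and 16.4 CPM. *Rbpjl*, the acinar partner of PTF1A, was at 42.5, 24.6 and 35.7 CPM. *Nkx2-2* was at 21.0, 17.0 and 17.0 CPM, and *Foxa1*, *Gata6*, *Hes1* and *Mnx1* had means between 4.44 and 13.6 CPM. The lowest levels were those of *Nkx6-1*, at 1.92, 2.35 and 1.35 CPM, and of *Ptf1a*, at 2.20, 2.69 and 1.78 CPM. *Nkx6-1* and *Ptf1a* later divide trunk from tip in the buds. The relative of *Nkx6-1*, *Nkx6-2*, was at 130.0, 141 and 112 CPM, and per length its level of 209 ± 29.0 on the TPM scale stood far above the 1.87 ± 0.543 of *Nkx6-1*.

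**Figure D1:**
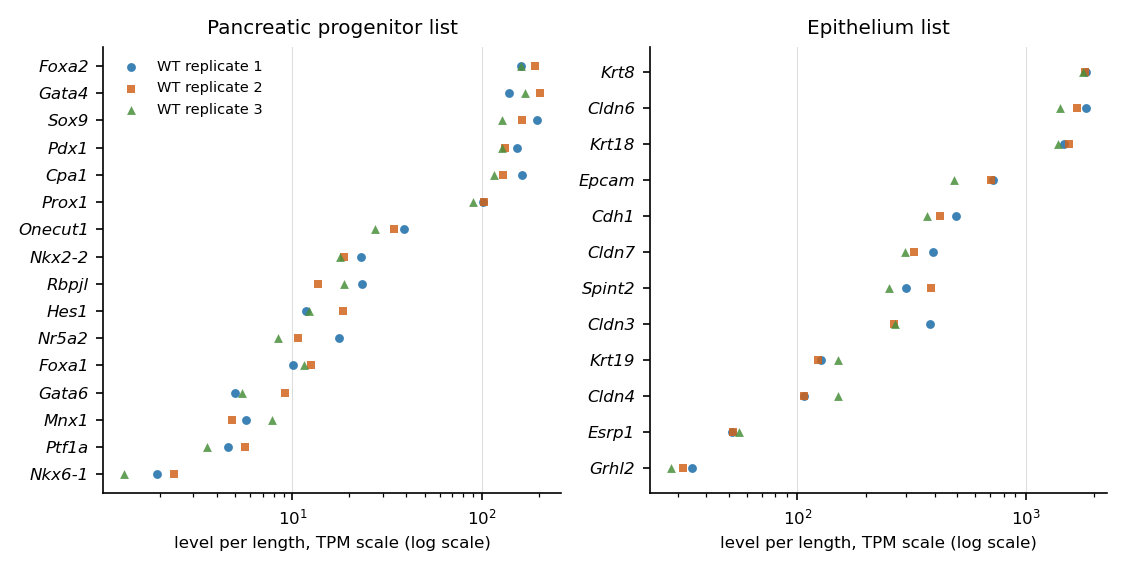
Level per length (TPM scale, log axis) of each gene of the pancreatic progenitor list (left, 16 of 17 genes) and the epithelium list (right, 12 genes); each point is 1 WT library. The 3 libraries lie close together in most rows, and *Nkx6-1* and *Ptf1a* sit at the bottom left, far below *Pdx1*, *Sox9* and *Foxa2*.

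The cells also carried an epithelial set of transcripts. All 12 genes of the epithelium list passed, against 27.2% of all listed genes, with sums of 5205, 5015 and 4609 CPM. The simple epithelial keratins *Krt8* (1815 ± 27.5) and *Krt18* (1466 ± 84.0) and the embryonic claudin *Cldn6* (1643 ± 217) were the highest of the list on the TPM scale, and the junction factor *Grhl2* was the lowest, at 31.3 ± 3.29. *Krt8* hardly varied, at 1141, 1128 and 1161 CPM (CV 1.43%), while *Epcam*, a surface marker used to sort epithelium, was at 503, 488 and 354 CPM. For the neighbouring duodenum, 7 of 8 listed genes passed. *Hnf4a*, a factor of gut and liver, was the highest of them at 85.7 ± 11.8 on the TPM scale. The intestinal factor *Cdx2* was at 4.12, 11.3 and 5.02 CPM and *Cdx1* at 0.234, 0.224 and 0.0482 CPM. For stomach and anterior foregut, 2 of 6 genes passed, *Nkx6-3* and *Sox2*. *Nkx6-3* was the highest of the list at 12.6 ± 7.10 on the TPM scale, with 14.8, 6.16 and 6.13 CPM. *Sox2* was at 0.656, 0.784 and 1.54 CPM, and *Nkx2-1* and *Gkn1* had 0 counts in every library. A count of 0 allows up to 3 counts, which is 0.141, 0.168 and 0.145 CPM in WT replicates 1, 2 and 3, for counting error only.

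Counts were spread over many genes. The 10 most abundant genes took 4.33%, 4.90% and 4.98% of the counts, the 100 most abundant took 15.7%, 16.1% and 17.1%, and 1158, 1198 and 1127 genes were needed to reach 50%. By mean level, 68 genes lay at 1000 CPM or more and held 12.96% of the counts, 2453 genes lay between 100 and 1000 CPM with 54.6%, and 7242 between 10 and 100 CPM with 29.7%. The remaining 4706 and 595 genes lay between 1 and 10 CPM and under 1 CPM.

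*Ubb*, which encodes ubiquitin, stood first per length at 11413 ± 741 on the TPM scale. *Gm1821*, known as a ubiquitin pseudogene, was at 6621 ± 530, and since such copies can share reads the split between these genes is uncertain. *Hbb-y* owed its place among the first genes to WT replicate 3 alone. *Gm10123*, annotated as a processed pseudogene, was at 6722 ± 1102, and its level is uncertain in the same way.

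The first gene with a role specific to this tissue was *Gcg*, which encodes glucagon, in place 6 per length at 6170 ± 3974, and next to it stood *Slc38a5*, an amino acid transporter, at 5270 ± 2889. Both had a wide spread. *Slc38a5* was at 1546, 5580.5 and 4279 CPM and *Gcg* at 894, 4588 and 3421 CPM, so that WT replicate 1 was the lowest and WT replicate 2 the highest in each. *Nepn*, a secreted leucine-rich protein known from foregut and midgut endoderm, was in place 15 at 3414 ± 282, with 2350, 1979 and 2262 CPM. *Mif*, a cytokine, was in place 8 at 4560 ± 135 on the TPM scale and was nearly the same in each library, at 1091, 1096 and 1091 CPM. The peptide hormone gene *Pyy* stood just outside the first 20, at 2633 ± 1122. Among genes of basic metabolism and structure, *Actb*, *Tuba1a*, *Ldha*, *Gapdh* and *Hspa8* were in the first 20, between 2904 and 4552 on the TPM scale. By CPM, which favours long transcripts, *Hspa8*, *Peg3* and *Eno1* were among the first genes, and *Peg3*, an imprinted zinc finger gene, was at 3665, 4461 and 5131 CPM.

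General cell functions were described by 14 groups of genes. Glycolysis was complete, with 19 of 19 genes passing and 1.94%, 1.96% and 1.89% of the counts, and was led per length by *Ldha* at 3026 ± 254 and *Gapdh* at 2904 ± 92.5. Cytosolic ribosomal proteins (87 of 92 passed) took 2.12%, 1.83% and 1.91%, led by *Rplp0* at 1688 ± 132 on the TPM scale. All 28 genes of S phase and mitosis passed and were led by *Cdc20*, an activator of the anaphase ligase, at 609.9 ± 72.5 and *Rrm2*, a subunit of ribonucleotide reductase, at 590.2 ± 8.83. All 40 hnRNP and splicing factor genes passed, with *Hnrnpf* first at 1096 ± 41.6. Genes of mitochondrial DNA took 0.345%, 0.418% and 0.442% of the counts. Their most abundant gene, *mt-Co3*, was at 4062 ± 636 on the TPM scale. *Gm28437*, annotated as an unprocessed pseudogene, was at 4202 ± 662 and may hold reads of mitochondrial origin, so the split between such genes is uncertain. All 16 imprinted genes listed passed, with *Peg3*, *Dlk1* and *Mest* the highest per length. In the other groups, 82 of 89 nuclear respiratory chain genes, 78 of 86 chaperones, 62 of 68 translation factors, 44 of 48 proteasome genes, 16 of 20 actins and tubulins and 9 of 9 HMG box chromatin proteins passed. The histones (58 of 101) and keratins (10 of 50) had the lowest shares beside mitochondrial DNA genes (16 of 37).

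Of 696 transcription factor genes in 29 families, 392 passed, 110 had 0 counts in all 3 libraries, and the class took 1.44%, 1.53% and 1.45% of the counts. Among those that passed, the median level was 8.34 on the TPM scale, against 17.4 over all genes that passed, and 0, 3, 8 and 68 transcription factors were among the first 100, 500, 1000 and 5000 genes per length. The highest levels belonged to the basic helix-loop-helix family. *Id3* (625 ± 67.2), *Id2* (548 ± 72.4) and *Id1* (306 ± 26.6) encode inhibitors that bind E proteins and are known targets of BMP signals, and *Tcf3* (357 ± 57.8) encodes such an E protein. In CPM, *Id3* was at 399.5, 328 and 353 and *Tcf3* at 499, 499 and 389.5 in WT replicates 1, 2 and 3.

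*Etv5*, an ETS factor known as a target of FGF signals, was the next of the class at 287 ± 15.3 on the TPM scale and varied little, at 396, 358 and 381 CPM. Its relative *Etv4* was at 54.4 ± 5.67 on the TPM scale. *Xbp1*, which drives the response of secretory cells to unfolded protein, was at 286 ± 43.3, and *Ybx1*, a cold shock domain protein, at 234.3 ± 65.8 with WT replicate 2 the highest. The next places went to *Nkx6-2*, *Hes6* (185 ± 27.5), *Foxa2*, *Gata4*, *Tfdp1* (169.7 ± 18.6), a partner of E2F factors, and *Sox9*. *Jun* and *Atf4*, factors of stress and growth signals, were at 158 ± 35.8 and 154 ± 11.7, ahead of *E2f4*, *Pdx1*, *Trp53*, *Nfe2l1* and *Nfyc*. The LIM homeobox factor *Isl1*, of endocrine cells and dorsal mesenchyme, came just after at 128 ± 51.6, with 92.1, 219.6 and 178 CPM and WT replicate 1 the lowest.

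The families differed in how many members had at least 10 counts in each library, which 56.3% of the class and 27.2% of all listed genes had. All 10 E2F and DP genes passed, as did 21 of 22 MYC, MAX and leucine zipper genes and 25 of 26 STAT, IRF and NF-kappaB genes. Of 39 Hox genes, 4 passed. Of 51 NK and related homeobox genes, 10 passed and 20 had 0 counts in every library. Of 44 forkhead genes, 16 passed. After *Foxa2*, the forkhead gene *Foxa3* was at 58.7 ± 12.99. Among T-box genes, 5 of 16 passed with *Tbx3* first at 9.92 ± 3.97.

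**Figure D2:**
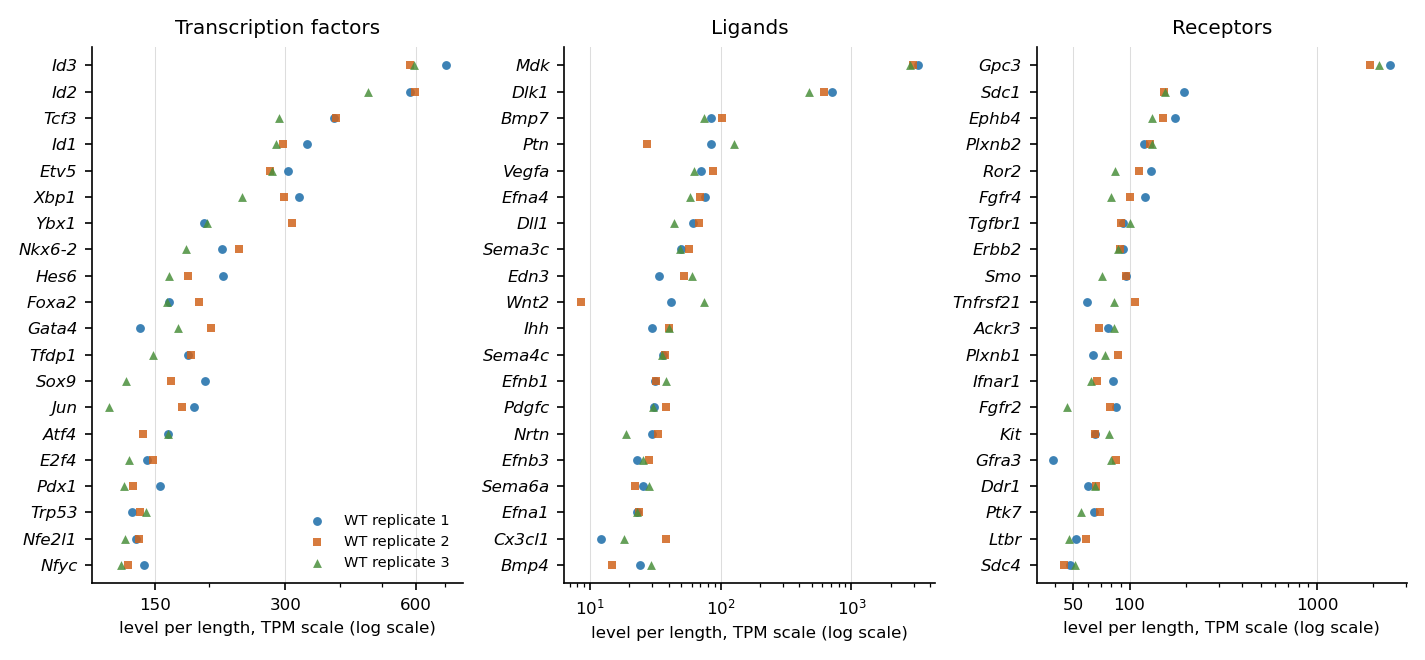
Level per length (TPM scale, log axes with different ranges) of the 20 highest transcription factors, ligands and receptors; each point is 1 WT library. *Mdk*, *Dlk1* and *Gpc3* stand far to the right of the other ligands and receptors, and *Ptn*, *Wnt2* and *Cx3cl1* are the rows with the widest gaps between libraries.

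Of 246 receptor and co-receptor genes in 20 families, 160 (65.0%) passed, against 27.2% of all listed genes, and 17 had 0 counts in every library. *Gpc3*, a glypican that binds growth factors at the cell surface, was far above the rest at 2176 ± 272 on the TPM scale, with 2099.5, 1625 and 1926 CPM. The syndecan *Sdc1* was next at 167 ± 23.8, followed by the ephrin-B2 receptor *Ephb4* at 152 ± 21.8, the semaphorin receptor *Plxnb2* at 127 ± 6.46 and the Wnt5a receptor *Ror2* at 109 ± 23.4. Next to each other, *Ror2*, *Fgfr4* (100.3 ± 20.5), *Tgfbr1* (94.5 ± 5.23), *Erbb2* (89.3 ± 3.02) and *Smo* (87.9 ± 14.4) differed by less than the largest of their SDs. *Erbb2*, the co-receptor of the EGF and neuregulin receptors, varied least of these, at 153, 146 and 149.7 CPM. The median CV of receptors that passed was 18.4%, against 18.03% for transcription factors and 22.7% for ligands, and 12.5% for all genes.

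Among FGF receptors, 6 of 7 passed. *Fgfr4* was at 136, 112 and 93.9 CPM and *Fgfr2*, the receptor of FGF10, at 277.5, 258 and 158 CPM, both lowest in WT replicate 3. Per length, *Fgfr2* was at 70.0 ± 20.8, the co-receptor *Klb* at 40.4 ± 14.5, *Fgfr3* at 15.6 ± 0.991 and *Fgfr1* at 12.5 ± 1.26. *Fgf10* itself, a mesenchymal ligand, was at 0.468, 0.224 and 2.22 CPM and did not pass. Of 22 FGF genes 5 passed, a share near the 27.2% of all listed genes. *Fgf13*, a member that is not secreted, was first at 4.88 ± 0.908.

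Of 235 ligand genes in 20 families, 109 (46.4%) passed, against 27.2% of all listed genes, and 36 had 0 counts in every library. *Mdk*, which encodes the heparin-binding growth factor midkine, was the highest at 2989 ± 211 on the TPM scale and in place 19 of all genes, with 1354, 1227 and 1236 CPM. *Dlk1*, an imprinted gene that encodes a transmembrane relative of the Notch ligands, followed at 597 ± 119 with 1271, 1094 and 887 CPM. After a gap came *Bmp7* (86.8 ± 13.5), *Ptn* (79.7 ± 49.99), *Vegfa* (73.4 ± 13.04), *Efna4* (68.1 ± 8.73), *Dll1* (58.1 ± 12.4), *Sema3c* (52.2 ± 4.77) and *Edn3* (48.8 ± 13.5). *Ptn*, the relative of *Mdk*, was at 92.2, 29.7 and 145 CPM, and *Wnt2*, the highest Wnt gene at 41.5 ± 32.8 on the TPM scale, was at 29.9, 6.10 and 55.6 CPM. In both, WT replicate 2 was the lowest and WT replicate 3 the highest. Of 20 semaphorin genes, 19 passed, as did 7 of 8 ephrins, 10 of 11 PDGF and VEGF genes, 6 of 38 chemokines and 1 of 15 TNF family genes.

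Some ligand and receptor pairs were present within these libraries. *Kitl* was at 12.2 ± 1.90 and its receptor *Kit* at 69.4 ± 6.999 on the TPM scale, with *Kit* at 184.5, 184 and 229.5 CPM. For Hedgehog, *Ihh* was at 36.8 ± 5.99 and *Shh* at 0.782 ± 0.240, beside *Smo* and *Ptch1* (7.51 ± 0.532). *Gli1*, a transcribed target of the pathway, was at 0.468, 0.392 and 0.868 CPM. For Notch, *Dll1* and *Dll4* (15.03 ± 2.11) stood beside *Notch2* (21.5 ± 0.689), *Notch1* (19.8 ± 1.37) and *Notch3* (19.2 ± 2.81), whose levels overlapped, and *Jag1* was at 2.81 ± 0.506. *Notch2* and *Notch1* were among the steady receptors, with CVs of 3.001% and 4.65%. For Wnt, 7 of 19 ligands and 14 of 16 Frizzled and co-receptor genes passed, with *Fzd2* (33.7 ± 6.36), *Fzd3* (26.0 ± 2.32) and *Fzd4* (22.1 ± 0.538) the highest Frizzled genes on the TPM scale.

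Other ligands stood beside receptors of unequal level. *Vegfa* was at 95.7, 118.5 and 88.5 CPM while *Kdr*, its main receptor on endothelium, was at 0.281, 1.23 and 0.579 CPM. *Flt1*, which also binds VEGFA, passed, at 4.25 ± 1.84 on the TPM scale with 24.4, 20.9 and 9.74 CPM. *Edn3* was at 44.2, 67.6 and 82.5 CPM while *Ednrb* was at 0.281, 0.336 and 3.76 CPM, and *Ednra* was at 30.2, 22.7 and 30.9 CPM. *Cxcl12* was at 28.2, 26.3 and 25.2 CPM, with its receptor *Cxcr4* at 8.67, 3.14 and 9.36 CPM and the scavenging receptor *Ackr3* at 81.4, 72.3 and 92.0 CPM.

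Endocrine genes were abundant and differed between libraries. Of 18 listed genes, 15 passed, and their summed level was 1491, 6226 and 4642 CPM in WT replicates 1, 2 and 3. Besides *Gcg*, the hormone gene *Pyy* was at 296, 739.7 and 568 CPM and the granule proteins *Chgb* and *Chga* were at 80.5, 228 and 177 CPM and at 31.2, 145 and 100.2 CPM. WT replicate 1 was the lowest and WT replicate 2 the highest in each of these. *Iapp*, the amyloid peptide of beta cells, was at 6.93, 70.7 and 18.6 CPM and *Ghrl*, the ghrelin gene, at 1.55, 49.7 and 7.04 CPM. The other islet hormones were low. *Ins1* was at 0.749, 8.34 and 3.42 CPM, *Ins2* at 0.0468, 1.57 and 0.193 CPM, and *Sst* at 0, 7.95 and 0.193 CPM, and WT replicate 2 was the highest in each of these.

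Of the 9 endocrine genes with a mean of at least 20 CPM, 7 were at least 2-fold lower in WT replicate 1 than in the geometric mean of the other libraries, where 0.878% of all 7976 genes at that level were, and 3 were at least 2-fold higher in WT replicate 2, where 0.74% of all genes were. These ratios compare 1 library with the others and have no test. The mean of *Iapp* would lie below 20 CPM without WT replicate 2, so its high ratio there follows from the filter. The factors that act earlier differed less. *Neurog3* was at 17.6, 27.9 and 22.2 CPM, *Pax4* at 10.02, 9.35 and 9.45 CPM and *Neurod1* at 22.5, 42.1 and 47.3 CPM, while *Pax6* was at 27.8, 63.5 and 62.5 CPM. The lowest gene of the list per length was *Insm1*, a zinc finger factor of endocrine differentiation, at 0.562, 1.06 and 1.21 CPM. *Ppy*, the pancreatic polypeptide gene, was highest in WT replicate 3, at 4.73, 5.21 and 11.3 CPM. The part of the endocrine genes in other differences between the libraries was not tested.

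The bases before the start sites of 3 hormone genes are shown, which were picked after it was seen that they hold the letters TATAA. The sequences are the 60 bases before the RefSeq start on GRCm38.p6, 5′ to 3′ on the strand of the gene, with the letters TATAA in capitals. *Gcg* is read at chr2:62483654-62483713 on the minus strand, *Pyy* at chr11:102107833-102107892 on the minus strand for the first of its 2 starts, *Iapp* at chr6:142298365-142298424 and *Pdx1* at chr5:147270037-147270096, both on the plus strand. *Pdx1* is shown as a gene whose level hardly differed between the same libraries.
Gcg: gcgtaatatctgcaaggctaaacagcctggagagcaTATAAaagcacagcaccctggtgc
Pyy: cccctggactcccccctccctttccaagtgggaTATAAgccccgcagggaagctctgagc
Iapp: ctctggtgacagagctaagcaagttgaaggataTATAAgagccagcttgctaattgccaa
Pdx1: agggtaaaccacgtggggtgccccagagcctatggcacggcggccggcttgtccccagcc
TATAA begins 24 bases before the start in *Gcg* and 27 bases before it in *Pyy* and *Iapp*, and these letters are not in the *Pdx1* window. The second *Pyy* start does not hold them, nor do any of the 4 starts of *Ghrl* or the 1 start of *Chgb*, which had the same order of libraries, so the letters are not shared by these genes as a group. Of all 32851 starts in the table, 1391 (4.23%) hold TATAA within the 40 bases before the start on the strand of the gene, and 1769 (5.38%) on either strand. A match is a description of the letters, not of a bound site. Too few genes of the endocrine list (14 of 18) had a start in the table for a share over the list.

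Genes of the hepatoblast list, made in the liver bud next to the pancreas, were also present. Of 12 genes 11 passed, with sums of 1876, 2575 and 1177 CPM. *Afp*, the fetal serum protein, was the highest at 707 ± 404 on the TPM scale, with 767, 1175 and 334 CPM. *Ttr* was at 146.5, 268 and 191 CPM, *Trf* at 529, 492 and 319 CPM, *Alb* at 29.7, 39.8 and 16.2 CPM, and *Ahsg* was the lowest, at 0.234, 0 and 0.193 CPM. WT replicate 3 was the lowest of the libraries in *Afp*, *Trf* and *Alb*. Of the 11 genes with a mean of at least 20 CPM, 4 were at least 2-fold lower in WT replicate 3, where 0.251% of all genes were. In WT replicate 2, 3 were at least 2-fold higher, where 0.74% of all genes were. Their part in the levels of *Hnf4a*, *Prox1*, *Foxa2* and other factors that liver and pancreas share was not tested.

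Most mesenchymal transcripts went in another order. Of 13 listed genes 9 passed, with sums of 549, 196 and 1173 CPM. *Col3a1* was at 201, 62.3 and 409 CPM, *Col1a1* at 106, 34.8 and 257 CPM, *Pdgfra* at 26.1, 9.24 and 71.1 CPM and *Acta2* at 29.5, 3.36 and 39.7 CPM, with WT replicate 2 the lowest and WT replicate 3 the highest in each. All 6 listed genes with a mean of at least 20 CPM were at least 2-fold higher in WT replicate 3, where 0.677% of all genes were, and all 6 at least 2-fold lower in WT replicate 2, where 0.564% of all genes were. Without WT replicate 3, *Postn* (8.99, 4.48 and 64.5 CPM), *Pdgfra* and *Acta2* would lie below that mean. The count of genes higher in WT replicate 3 therefore follows in part from the filter. The transcription factors of the list were low. *Prrx1* passed, at 1.73, 0.672 and 3.18 CPM, in the same order of libraries as the collagens. *Foxf1*, a factor of gut mesenchyme, was at 0.187, 1.85 and 1.59 CPM and went against that order, with WT replicate 2 the highest. *Twist1* had at most 0.328 CPM, *Barx1* at most 0.241 CPM, and *Nkx3-2*, the lowest of the list, was at 0, 0 and 0.145 CPM. *Ptn*, *Wnt2*, *Sema3a* and the receptor *S1pr3* had their lowest level in WT replicate 2 too, and the part of mesenchymal RNA in them was not tested. The 4 mesothelium genes passed with sums of 57.0, 40.1 and 140.1 CPM and were led by *Upk3b* at 39.8 ± 27.0 on the TPM scale, with *Wt1* the lowest at 2.90, 0.896 and 4.92 CPM.

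Globin transcripts were found in WT replicate 3. The 11 erythroid genes summed to 2.25, 4.65 and 16185 CPM, which is 1.62% of the counts of WT replicate 3. The embryonic beta globin *Hbb-y* was at 0.328, 0.168 and 5676 CPM and the alpha globin *Hba-a1* at 0.141, 0.896 and 3525 CPM. *Klf1*, an erythroid transcription factor, was the single gene of the list with 10 counts in each library. All 8 erythroid genes with a mean of at least 20 CPM were at least 2-fold higher in WT replicate 3, where 0.677% of all genes were. They reached that mean through WT replicate 3 alone, so this count follows from the filter. The start of *Hba-a1*, shown for the same letters as the hormone genes, lies downstream of chr11:32283612-32283671 on the plus strand of GRCm38.p6, where TATAA begins 27 bases before it.
Hba-a1: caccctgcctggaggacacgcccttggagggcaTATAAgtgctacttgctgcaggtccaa
*Car2* and *Blvrb*, carbonic anhydrase and biliverdin reductase genes that red cells use, were at 13.3, 9.24 and 169.0 CPM and at 4.87, 5.15 and 55.6 CPM. The part of erythroid RNA in these and in other genes high in WT replicate 3 was not tested.

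Markers of the remaining cell types were low. Endothelial genes summed to 44.2, 41.3 and 28.9 CPM with 5 of 9 passing. *Flt1* was the highest of them in CPM, whereas *Cdh5*, the endothelial cadherin, had at most 0.187 CPM. Leukocyte genes summed to 7.31, 1.18 and 2.46 CPM, and the pan-leukocyte gene *Ptprc* was at 0.749, 0 and 0 CPM. Of 10 neural and neural crest genes 2 passed, *Tubb3* and *Elavl4*, which endocrine cells also use, and *Pax3*, *Sox1*, *Neurog1* and *Olig2* had 0 counts in every library. Somite genes summed to at most 9.55 CPM with 0 counts of *Myog*, and notochord genes to at most 0.937 CPM with 0 counts of *Noto*.

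**Figure D3:**
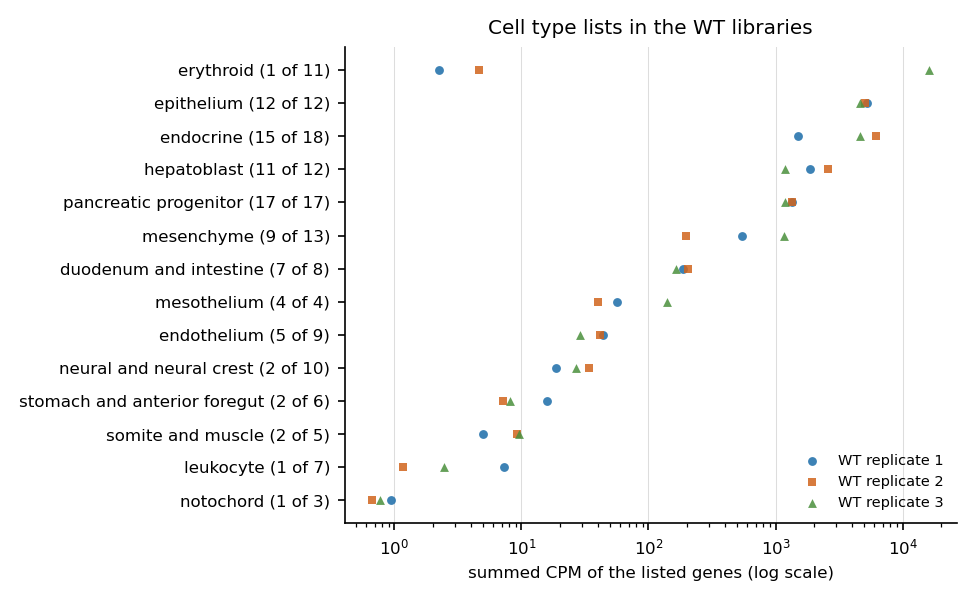
Summed CPM (log axis) of the genes of each cell type list in each WT library, with the number of genes that passed out of those listed; points are to be compared along a row, since lists differ in the number and length of their genes. The progenitor and epithelium rows are tight, while the erythroid row runs from 2.25 to 16185 CPM and the endocrine and mesenchyme rows spread widely in different orders.

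The spread between libraries was larger than counting alone would give. The median CV over the 15064 genes was 12.5% (quartiles 7.06% and 23.1%), and counting error alone would give a median of 4.68%. The common biological coefficient of variation, estimated by edgeR from the 3 libraries, was 0.1999. For the same genes it was 0.206 between WT replicates 1 and 2, 0.188 between 1 and 3 and 0.1999 between 2 and 3. The median CV fell with abundance, from 23.9% under 1 CPM and 23.5% at 1 to 10 CPM to 10.4% at 10 to 100 CPM, 6.96% at 100 to 1000 CPM and 5.68% above that. Of all genes that passed, 5997 (39.8%) had a CV under 10% and 730 (4.85%) a CV over 50%.

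**Figure D4:**
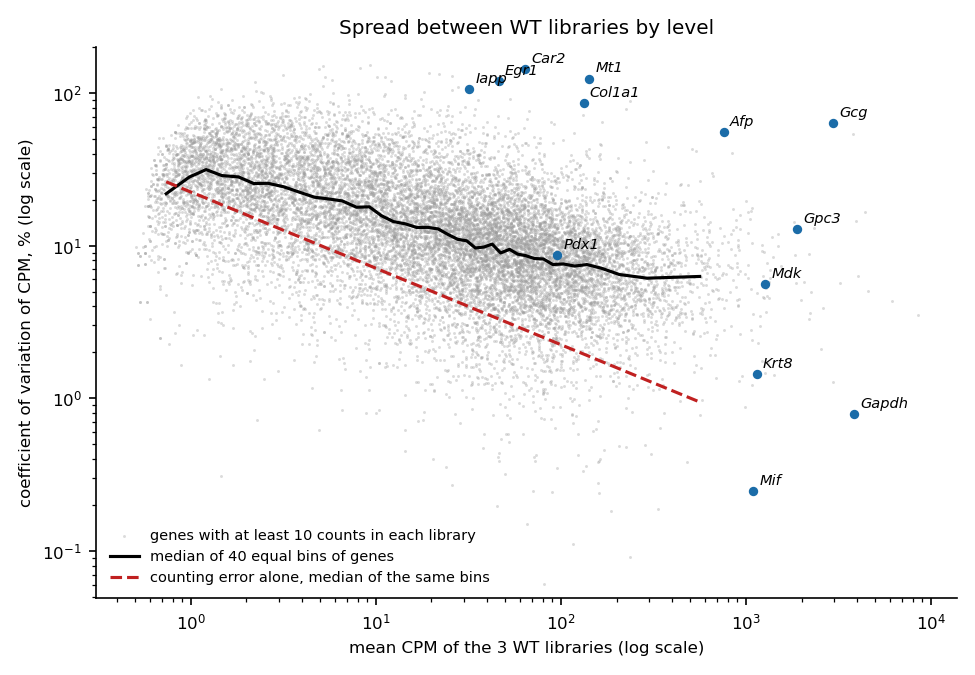
Coefficient of variation of CPM over the 3 WT libraries against mean CPM (both axes log) for the 15064 genes with at least 10 counts in each; the black line joins medians of 40 bins of genes and the dashed red line is what counting alone would give in the same bins. The black line lies above the red one at all but the lowest levels, *Gapdh*, *Krt8* and *Mif* lie far below it, and *Gcg* and *Afp* lie far above it.

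The median CV differed between the groups and lists. It was 5.06% for hnRNP and splicing factors, 5.16% for the nuclear respiratory chain, 5.71% for S phase and mitosis, 6.26% for the proteasome and 7.62% for cytosolic ribosomal proteins, but 13.2% for genes of mitochondrial DNA, 18.1% for keratins, 19.2% for histones and 21.6% for imprinted genes. Among cell type lists it was 12.9% for epithelium, 18.4% for pancreatic progenitors, 31.0% for hepatoblasts, 46.4% for endocrine genes and 77.5% for mesenchyme. Levels differ between these groups, and the CV falls with the level, so the groups are described and not compared by a test. Among the 7976 genes with a mean of at least 20 CPM, the smallest CVs were those of *Pnpla8*, *Cpsf3*, *Tbc1d17*, *Dlgap4*, *Trap1*, *Psmd3*, *Rpa3*, *Cdip1*, *Nelfe* and *Mif*, from 0.0610% to 0.246%. *Cpsf3*, the nuclease that cuts pre-mRNA 3′ ends, was at 235.9, 236.3 and 235.9 CPM, closer together than counting error alone would give, and *Psmd3*, a proteasome subunit, was at 337, 336 and 336 CPM.

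The largest CVs among these 7976 genes belonged to genes that were nearly absent from some libraries. The Y-linked *Kdm5d* and *Uty*, the globins *Hbb-bh1*, *Hbb-y*, *Hba-x*, *Hba-a1*, *Hba-a2*, *Hbb-bt* and *Hbb-bs*, and *Alas2*, the first enzyme of heme synthesis in red cells, made up the first 10. Among those of the 7976 genes that had 10 counts in each library, *Car2* (CV 143%), *Blvrb* (133.5%), *Postn* (129%), *Mt1* (124.3%) and *Egr1* (119%) led. Without the library where they were highest, *Car2*, *Blvrb*, *Postn* and *Egr1* would lie below the mean of 20 CPM. Their place here therefore follows in part from the filter. *Postn*, a matrix protein of mesenchyme, was at 8.99, 4.48 and 64.5 CPM and *Mt1*, a metallothionein, at 37.2, 43.5 and 348 CPM.

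Relative to the geometric mean of the others, 7 genes were at least 2-fold higher in WT replicate 1 (0.0878% of the 7976) and 70 at least 2-fold lower. The higher genes were *Uty* and *Kdm5d*, which reached the mean of 20 CPM through WT replicate 1 alone, and others that included *Acta2*, *Gc*, *Gm6472* and *Adi1*. *Acta2*, at 29.5, 3.36 and 39.7 CPM, was not highest in WT replicate 1, and its ratio rests on the low WT replicate 2. *Gc*, the vitamin D-binding protein, was at 192, 76.7 and 83.4 CPM. Genes lowest in WT replicate 1 among those with 10 counts in each were *Astn1*, *Iapp*, *Gcg*, *Peg10* and *Chga*, with log2 ratios of -2.40, -2.38, -2.15, -2.04 and -1.95. In WT replicate 2, 59 genes were at least 2-fold higher and 45 lower. The immediate early genes *Egr1* (18.4, 109 and 10.7 CPM) and *Fos* (12.7, 63.2 and 8.10 CPM) had the largest log2 ratios there among genes with 10 counts in each, 2.96 and 2.64, and *Acta2*, *Wnt2* and *Sema3a* the lowest. Without WT replicate 2, *Egr1* and *Fos* would lie below the mean of 20 CPM, so their high ratios there follow from the filter. In WT replicate 3, 54 genes were higher and 20 lower. The lowest there after the Y-linked genes were *Egr1*, *Sox17*, *Fos*, *Afp* and *Apoa1*. *Sox17*, an endoderm factor kept by the biliary part of the foregut, was at 48.9, 88.5 and 17.9 CPM.

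**Figure D5:**
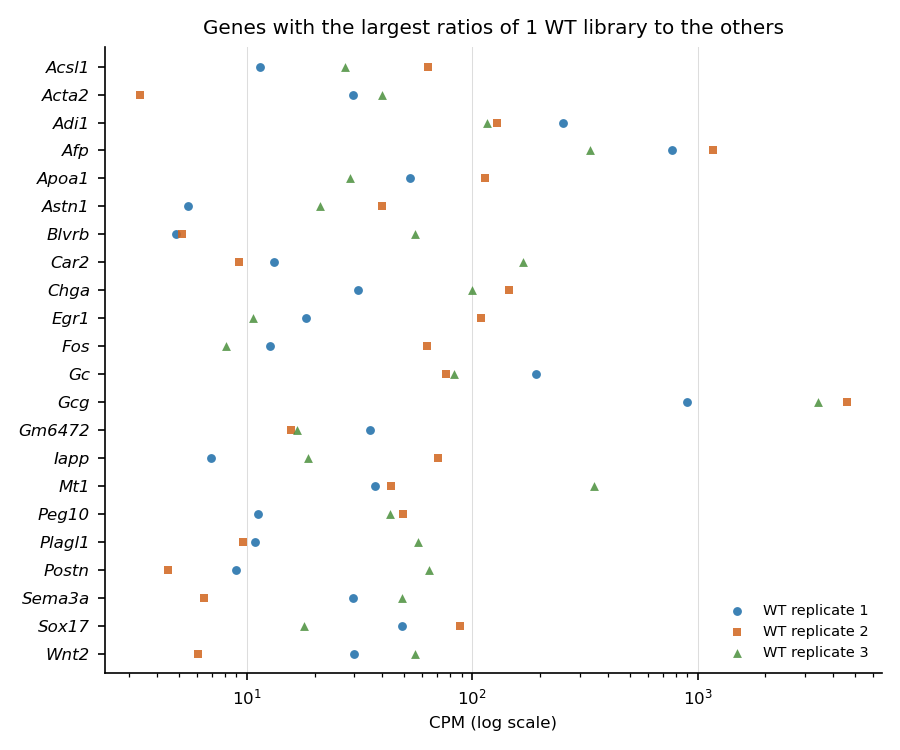
CPM (log axis) in each WT library of 22 genes that are among the 5 with the largest or smallest ratio of 1 library to the others, with a mean of at least 20 CPM and at least 10 counts in each library. *Iapp*, *Gcg*, *Chga* and *Astn1* are lowest in WT replicate 1, *Egr1* and *Fos* are highest in WT replicate 2, and *Car2*, *Blvrb*, *Mt1*, *Postn* and *Plagl1* are highest in WT replicate 3. Without the library where they are highest, *Egr1*, *Fos*, *Car2*, *Blvrb*, *Postn* and *Plagl1* would lie below that mean, so their high ratios follow from the filter.

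Genes of the signalling classes took part in these differences, in several cases at a higher share than all genes did. Of 163 transcription factors with a mean of at least 20 CPM, 4 (2.45%) were at least 2-fold lower in WT replicate 1, where 0.878% of all genes were, and 0 were higher. In WT replicate 2, 4 (2.45%) were higher against 0.74% of all genes and 1 (0.613%) was lower against 0.564%. In WT replicate 3, 2 (1.23%) were higher against 0.677% and 3 (1.84%) were lower against 0.251%. These shares rest on few genes and were not tested. The transcription factors past 2-fold were *Isl1*, *Osr1*, *Pax6*, *Plagl1*, *Egr1*, *Fos*, *Sox17* and *Tfcp2l1*. Without the library where they were highest, *Plagl1*, *Osr1*, *Egr1* and *Fos* would lie below that mean. The counts of higher genes therefore follow in part from the filter. *Plagl1*, an imprinted zinc finger factor, was at 10.9, 9.63 and 57.4 CPM and *Osr1*, a zinc finger factor of mesoderm and foregut, at 12.4, 18.4 and 39.3 CPM. Of 24 ligands, *Ptn*, *Wnt2* and *Sema3a* (12.5%) were at least 2-fold lower in WT replicate 2, against 0.564% of all genes, and the same 3 were higher in WT replicate 3, against 0.677%. *Wnt2* and *Sema3a* would lie below that mean without WT replicate 3, so the latter count also follows in part from the filter. *Cx3cl1* was higher in WT replicate 2 and lower in WT replicate 1. Of 78 receptors, *Pdgfra*, *S1pr3* and *Gfra3* passed 2-fold in at least 1 library. In WT replicate 1, 1 (1.28%) was lower against 0.878% of all genes. In WT replicate 2, 2 (2.56%) were lower against 0.564%. In WT replicate 3, 1 (1.28%) was higher against 0.677%. That gene was *Pdgfra*, which would lie below that mean without WT replicate 3, so this count follows from the filter. Of the 10 progenitor and 12 epithelial genes at this level 0 passed 2-fold in any library. At shares of 0.0878% to 0.878% of all genes, this says nothing particular about them.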

How the data were processed

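Cells were sorted from the trunk of E10.5 embryos, and polyadenylated RNA was copied to cDNA with a SMART-seq v4 kit. The authors discarded low-quality sequences and used STAR with its defaults and the GRCm39 genome. Reads per gene came from GenomicAlignments, and the deposited values are unnormalized counts. The annotation and the treatment of strand and of reads shared between genes are not given in the sources used here. Copies of a gene and overlapping antisense genes are therefore uncertain.

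The 3 WT columns were matched to samples by library name. CPM was taken on the total count. Symbols matched 94.0% of identifiers. Exon lengths and gene types came from GENCODE M21, built on GRCm38, so no coordinates of counted genes are given, and 15029 of the 15064 genes that passed had a length. Start sites came from RefSeq (GRCm38.p6). Ratios used a pseudocount of 0.5 counts. edgeR 4.0.16 with TMM factors gave the biological coefficient of variation and was tested on simulated data, and DESeq2 1.42.0 gave alternative size factors. No hypothesis was tested, since 1 condition has no contrast. Intervals and floors cover counting error only.

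The members and gene lists were chosen with earlier results of these data known. The rule named the first 20 genes by CPM, per length and in each class, all progenitor genes, the highest and lowest gene of each list, the 10 largest and smallest CVs, the 5 largest ratios of each library in each direction, and partners of ligands or receptors. Further genes of the lists were named after their values were seen. Some genes that this rule names are not reported here.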

Additional observations from a re-analysis of the deposited data

How the results depend on the processing

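No paired analysis was possible because no groups were compared and the results come from no test. Counts of passing genes, transcription factors, ligands and receptors stayed within 1.5 times under minimum counts of 5 or 20, with thinned counts and without any one library. The median CV was 12.4% with TMM factors or DESeq2 size factors, 32.6% with no filter beyond 1 count in total and 11.5% with at least 20 counts in each library, since the filters keep other genes. Without 1 library it ran from 9.78% to 11.0%, for pairs of libraries. The biological coefficient of variation ran from 0.192 to 0.208 when libraries were left out and the genes filtered anew, and it was within this range without TMM factors and with DESeq2 size factors. The 100 most abundant genes held 15.9% to 16.6% of the counts without 1 library and 16.3% without mitochondrial genes. With the longest transcript as length, 43 of the 50 highest genes per length were shared.

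Of 165 named genes, TMM factors moved the mean level by at most 1.30%. Leaving out WT replicate 1, 2 or 3 moved 5, 9 and 22 means by over 1.5 times. The first were *C1qb*, *Eif2s3y*, *Kdm5d*, *Ptprc* and *Uty*, and those for WT replicate 2 included *Egr1*, *Fos*, *Iapp* and *Sox17*. Those for WT replicate 3 included the globins, *Car2*, *Mt1*, *Postn*, *Pdgfra* and *Wnt2*. Without WT replicate 3, *Hbb-y* had 0.248 CPM. With 3 libraries and unknown embryo numbers, levels under 1 CPM rest on few counts.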
